A study of Homo sapiens with 2 samples.

Results

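Small Cajal body RNAs (scaRNAs) were read in A549 cells after silencing of p62/SQSTM1. The RNAs were chosen by gene symbol, as probe sets with exactly 1 symbol in the platform annotation and a symbol starting with SNORD, SNORA or SCARNA and a digit. This gave 23 of the 14884 named genes, all 23 of them scaRNAs, while 0 genes carried a SNORD symbol and 0 a SNORA symbol. The small nucleolar RNAs of those names were therefore not analysed here, and the classes compared below are the C/D box, H/ACA box and mixed classes among the scaRNAs. Each of the 23 was read by 1 probe set.

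A549, an established cell line, derives from a human lung adenocarcinoma. The siP62 group is A549 cells given an siRNA that targets p62, a ubiquitin-binding receptor of selective autophagy, and the siCONTROL group is A549 cells given a control siRNA. RNA was taken after 24 hours with Trizol, and 100 ng of it was labelled as biotinylated cDNA by the manufacturer's whole-transcript method. Each group held 1 array, so no value has a replicate error, the groups could not be tested against each other, and every difference below is a description of 2 arrays. Whether a difference reflects more RNA per cell or another mix of cells cannot be told apart.

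Guide RNAs of this kind work as the address of a modifying enzyme. A C/D box RNA pairs with its target and brings fibrillarin, which methylates the ribose, whereas an H/ACA box RNA brings dyskerin, which turns uridine into pseudouridine. Most small nucleolar RNAs direct these changes on ribosomal RNA in the nucleolus. ScaRNAs stay in Cajal bodies, nuclear bodies in which the spliceosomal small nuclear RNAs (snRNAs) are modified, and some of them carry both kinds of box. In vertebrates most are cut out of the introns of other genes.

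On the siP62 array SQSTM1, the target of the siRNA, had a log2 value of 7.30, against 8.64 on the siCONTROL array, which is 39.5% of the control level. The epithelial markers EPCAM, KRT7, KRT8, KRT18 and KRT19, 5 of the 9 epithelial and A549 markers listed, were read at 6.93 to 11.97 on the siP62 array and at 6.75 to 11.95 on the siCONTROL array; the other 4 were not analysed here. Of the 3 endothelial markers listed, PECAM1 and VWF lay at 3.14 and 3.63 on the siP62 array and at 2.92 and 3.83 on the siCONTROL array. The leukocyte marker CD14, 1 of 4 listed, read 5.94 on the siP62 array and 5.98 on the siCONTROL array, and the neuronal marker SYP, 1 of 4 listed, 6.32 on the siP62 array and 6.25 on the siCONTROL array. The other markers of these lists and the 3 fibroblast markers were not analysed here. Their part in the results was not tested.

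The scaRNAs differed little between the arrays as a group. Their median difference, siP62 minus siCONTROL on the log2 scale, was 0.06, with 14 higher and 9 lower in the siP62 array (12 higher after loess or quantile centring), and the differences ran from -0.30 to 0.97. Over all 14884 named genes the median difference was 0.00, 49.2% were higher, and the robust SD (scaled median absolute deviation) over genes was 0.24. The robust SD over the 23 scaRNAs was 0.31. These SDs describe the spread over genes and not an error between replicates.

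None of the 23 scaRNAs was at least 2-fold higher or lower in the siP62 array as deposited, and 1, SCARNA1, was 2-fold higher after quantile normalization. Over all named genes the shares past 2-fold were 0.168% higher and 0.181% lower. At 1.5-fold, 1 scaRNA, SCARNA1, was higher (2 after loess or quantile centring, with SCARNA15) and 0 were lower, beside 2.05% of all named genes that were higher and 2.14% that were lower. A single member does not set the scaRNAs apart from that background share.

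No detection call came with the values, so the median over both arrays of all named probe sets, a log2 value of 5.35, served as a limit below which a signal is not shown to be above background. Of the 23 scaRNAs, 18 reached it on at least 1 array, and 5 stayed below it on both. The leukocyte marker CD14 and the neuronal marker SYP also passed it on both arrays, so passing does not by itself show expression. The 18 had a median difference of 0.03, with 10 higher and 8 lower and none past 1.5-fold. Among the 7896 named genes that passed the same limit the median difference was 0.04, with 55.4% higher; the shares past 1.5-fold were 2.08% upward and 1.60% downward. The 18 thus had a median close to that of the genes that passed the same limit. The 5 below it had a median difference of 0.52, with 4 higher and 1 lower, and a robust SD of 0.67. Over the 6988 named genes below it the median was -0.02, 42.2% were higher and the robust SD was 0.25. Of those genes 2.02% were past 1.5-fold upward and 2.75% downward.

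**Figure D1:**
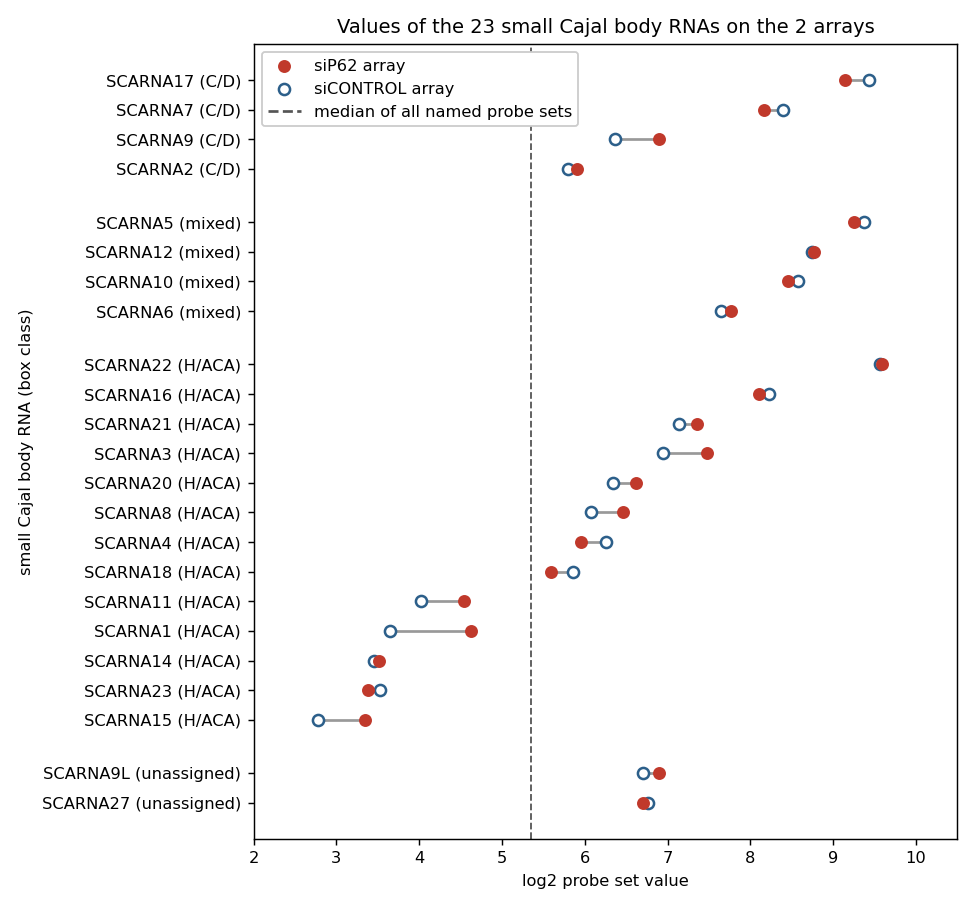
Log2 probe set values (x axis) of the 23 scaRNAs (y axis), grouped by box class and ordered by mean level within a class; filled points are the siP62 array, open points the siCONTROL array, and the dashed line is the median of all named probe sets, 5.35. The 5 scaRNAs left of the line on both arrays are all of the H/ACA class, and SCARNA1 has the widest gap, 4.62 on the siP62 array against 3.65 on the siCONTROL array.

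The C/D box scaRNAs, which guide ribose methylation, were SCARNA2, SCARNA7, SCARNA9 and SCARNA17. SCARNA17, also known as U91, guides methylation of U4 and U12 and had a log2 value of 9.14 on the siP62 array, against 9.43 on the siCONTROL array. SCARNA7, or U90, a guide for U1, had 8.16 on the siP62 array and 8.39 on the siCONTROL array. Both were lower in the siP62 array, by differences of -0.29 and -0.23. SCARNA9, a tandem guide for U2, went the other way, with 6.90 on the siP62 array and 6.37 on the siCONTROL array. SCARNA2, a further guide for U2, read 5.90 on the siP62 array and 5.80 on the siCONTROL array. The class had a median difference of -0.07 over 4 members, and 2 were higher and 2 lower.

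Of the 23 scaRNAs, SCARNA17 had the lowest-ranked difference among genes of its level. The lowest of any 23 genes would also stand low, so this rank does not set SCARNA17 apart. Genes were put into 20 bins of like mean level, and of the 744 named genes in its bin, whose robust SD was 0.16, 33 had a lower difference. For SCARNA7 the count was 87 of 744. For SCARNA9, with a 1.44-fold higher level in the siP62 array, 24 of 744 genes of like level had a higher difference. The ranks of SCARNA7 and SCARNA9, also picked from the 23, do not set them apart either.

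SCARNA9 has a copy elsewhere in the genome, SCARNA9L, of like length in the RefSeq table. SCARNA9L had 6.90 on the siP62 array and 6.70 on the siCONTROL array, so it too was higher, by 0.20, less than the 0.53 of SCARNA9. The probes were not checked for sequence shared by the copies, and whether the 2 probe sets read the same RNA was not tested. Without SCARNA9L the median difference over the scaRNAs was 0.05.

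The mixed scaRNAs carry a C/D and an H/ACA domain in 1 molecule, and their differences spanned the narrowest range of the 3 classes. SCARNA10, or U85, which guides both kinds of modification on U5, had 8.45 on the siP62 array and 8.57 on the siCONTROL array. SCARNA5, or U87, read 9.25 on the siP62 array and 9.37 on the siCONTROL array, and SCARNA6, or U88, 7.77 on the siP62 array and 7.64 on the siCONTROL array. SCARNA12, or U89, had 8.77 on the siP62 array and 8.74 on the siCONTROL array, a direction that turned with loess or quantile centring. The 4 differences ran from -0.12 to 0.13 with a median of -0.05. All 4 passed the limit of 5.35. In their level bins the robust SD over genes was 0.16 to 0.22, as for the C/D class, against 0.16 to 0.30 for the H/ACA members. The H/ACA class also has 13 members, and a range can widen with more members.

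The H/ACA box scaRNAs, which guide pseudouridylation, were the largest class with 13 members, and they spread most. Their differences ran from -0.30 to 0.97 with a median of 0.22, and 9 were higher and 4 lower in the siP62 array. All 5 scaRNAs below the limit of 5.35 belonged here. Over the 8 members that passed it, the median difference was 0.13, with 5 higher and 3 lower. These 8 ran from -0.30 to 0.52, beside -0.29 to 0.53 for the C/D class. The median and the wider range therefore rest in part on the dim members.

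SCARNA1, or ACA35, a guide for U2, had the highest difference of all scaRNAs. Its probe set 16661495 had a log2 value of 4.62 on the siP62 array and 3.65 on the siCONTROL array, a difference of 0.97. In its level bin, with a robust SD of 0.30, 3 of the 744 genes had a higher difference. The highest of all scaRNAs would stand high in any case, so this rank does not set SCARNA1 apart. Both values lay below the limit of 5.35, and the control value lay below the median of all probe sets on that array, 4.07, so no fold is given. SCARNA15, or ACA45, another guide for U2, is also known as a scaRNA that Dicer can cut into a microRNA-like fragment. It had 3.35 on the siP62 array and 2.78 on the siCONTROL array. SCARNA11, or ACA57, a guide for U5, read 4.54 on the siP62 array and 4.02 on the siCONTROL array. The other dim members, SCARNA14 (a guide for U2) and SCARNA23 (a guide for U6), differed by 0.06 and -0.15. SCARNA14 had 3.51 on the siP62 array and 3.45 on the siCONTROL array, and SCARNA23 had 3.38 on the siP62 array and 3.53 on the siCONTROL array.

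Among the H/ACA members above the limit, SCARNA3 had the highest difference. SCARNA3, or HBI-100, a guide for U6, had 7.47 on the siP62 array and 6.95 on the siCONTROL array, a 1.43-fold higher level. Of 744 genes of like level, 17 had a higher difference. As the member was picked for being the highest, this rank does not set SCARNA3 apart. SCARNA8, or U92, a guide for U2, read 6.46 on the siP62 array and 6.08 on the siCONTROL array. Both guides for U12 in this class were also higher in the siP62 array. SCARNA20, or ACA66, had 6.62 on the siP62 array and 6.34 on the siCONTROL array, and SCARNA21, or ACA68, 7.36 on the siP62 array and 7.14 on the siCONTROL array.

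Above the limit, 3 H/ACA members were lower in the siP62 array. SCARNA4, or ACA26, a guide for U2, had 5.96 on the siP62 array and 6.26 on the siCONTROL array. Its difference of -0.30 was the lowest of all scaRNAs, with 61 of 744 genes of like level lower still. The lowest of all scaRNAs would stand low in any case, so this rank does not set SCARNA4 apart. SCARNA18, or U109, a guide for U1, read 5.59 on the siP62 array and 5.86 on the siCONTROL array. SCARNA16, or ACA47, another guide for U1, had 8.10 on the siP62 array and 8.22 on the siCONTROL array. SCARNA22, or ACA11, known for its overexpression in multiple myeloma with a rearranged NSD2 locus, had 9.59 on the siP62 array and 9.56 on the siCONTROL array. Its difference of 0.03, which turned in sign with loess or quantile centring, was close to the median of genes of like level, 0.04. SCARNA27, which was given no box class here, read 6.70 on the siP62 array and 6.76 on the siCONTROL array.

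Levels of the classes are given for each class alone, since values of different probe sets also differ by how well their probes bind. The C/D box scaRNAs had a median log2 value of 7.53 on the siP62 array and 7.38 on the siCONTROL array. The mixed class had medians of 8.61 on the siP62 array and 8.66 on the siCONTROL array. The H/ACA class had medians of 5.96 on the siP62 array and 6.08 on the siCONTROL array, and 61.5% of its members reached the limit of 5.35, against all members of the other classes and 53.1% of all named genes. The H/ACA class is also made of shorter RNAs. In the RefSeq table of GRCh38.p14, all 13 were under 250 bases, whereas the C/D and mixed members and SCARNA9L, 9 in all, were longer. The 14 RNAs under 250 bases, SCARNA27 with them, had a median difference of 0.14 and the 9 longer ones one of 0.03. Among the 9 of the shorter RNAs that passed the limit it was 0.03 as well.

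**Figure D2:**
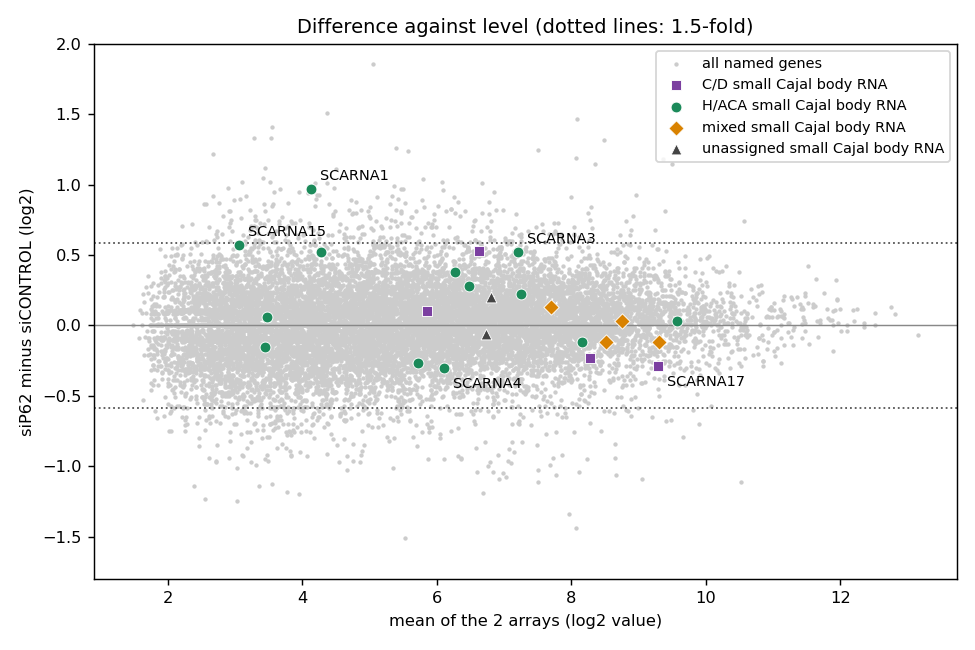
Difference between the arrays, siP62 minus siCONTROL on the log2 scale (y axis), against the mean log2 value of the 2 arrays (x axis); grey points are the 14884 named genes, coloured symbols the 23 scaRNAs by box class, and dotted lines mark 1.5-fold. SCARNA1 is the 1 scaRNA past a dotted line, and the 7 scaRNAs with a mean of 8 or more lie between -0.29 and 0.03.

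Higher differences lay with the dimmer probe sets. Of the 7 scaRNAs with a mean log2 value of 8 or more, 2 were higher and 5 lower in the siP62 array, with a median difference of -0.12. Of the 16 with a mean under 8, 12 were higher and 4 lower, with a median of 0.21, and over the 11 of these that passed the limit of 5.35 the median was 0.20. The named genes of the same ranges had medians of 0.04 at 8 or more, 0.00 under 8, and 0.04 under 8 where they passed the limit. In these 3 ranges 58.3%, 47.7% and 54.4% of the named genes were higher in the siP62 array. Across the 23 scaRNAs the Pearson correlation of difference and mean level was -0.45 and Spearman's rho -0.36, and across the 18 above the limit they were -0.31 and -0.23. Across all named genes they were 0.10 and 0.12. These are descriptions across genes read on the same 2 arrays, and the mean contains the values that make up the difference. The split at 8 was chosen after the values were seen.

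Grouped by the snRNA they are known to guide, all 3 scaRNAs for U1 (SCARNA7, SCARNA16 and SCARNA18) were lower in the siP62 array. Their differences were -0.23, -0.12 and -0.27, and they came from 2 box classes. Of the 7 scaRNAs for U2, the branch-site snRNA, 6 were higher and 1, SCARNA4, was lower, with a median difference of 0.38. Of these, 4 passed the limit of 5.35, and their median was 0.24, with 3 higher and 1 lower. Over all named genes 49.2% were higher, and over those past the limit 55.4%. All 7 guides for U2 had a mean of 6.635 or less. Among the U1 guides SCARNA7 and SCARNA16 had means of 8.275 and 8.16, and SCARNA18 had 5.725. The split by target thus overlaps in part with the split by level above, and these cannot be told apart. The U12 guides SCARNA20 and SCARNA21 were higher by 0.28 and 0.22, while SCARNA17, which guides U12 as well as U4, was lower. The scaRNAs assigned to U5 here went both ways, with 0.52 for SCARNA11 and -0.12 for SCARNA10. So did those assigned to U6, with 0.52 for SCARNA3 and -0.15 for SCARNA23. SCARNA11 and SCARNA23 lay below the limit on both arrays. No target was assigned to 6 scaRNAs, among them the mixed SCARNA5, SCARNA6 and SCARNA12. The grouping was made after the values were seen, with 3 to 7 members in the larger groups, and no difference between the groups was tested. The snRNAs themselves were not analysed here.

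**Figure D3:**
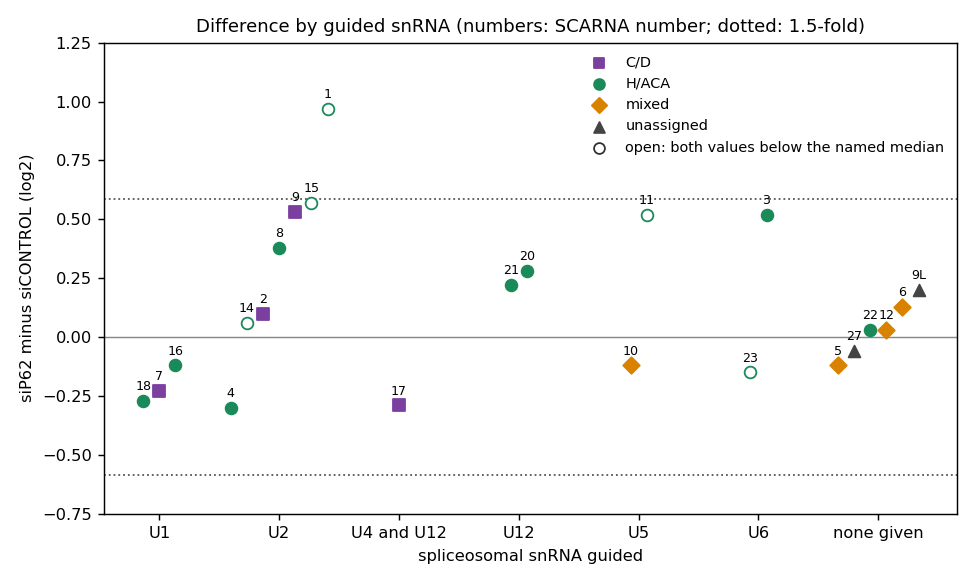
Difference between the arrays, siP62 minus siCONTROL on the log2 scale (y axis), of each scaRNA by the snRNA it guides (x axis); symbols give the box class, numbers the SCARNA number, open symbols mark values below 5.35 on both arrays, and dotted lines mark 1.5-fold. The 3 guides for U1 lie between -0.27 and -0.12, and 6 of the 7 guides for U2 lie above 0.

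Since most scaRNAs are cut from introns, each was set beside the gene around it. By their RefSeq positions, 22 of the 23 lay within the span of at least 1 other gene, and SCARNA2 did not. Strand was not compared, because the RefSeq table does not give it. For 13 scaRNAs a gene around them was named on the arrays, 12 genes in all, of which ATG16L1 holds 2 scaRNAs. The 12 genes had a median difference of 0.04 and ranged from -0.19 to 0.35. In 9 of the 13 pairs the scaRNA had the larger difference in size. Some margins were narrow, as for SCARNA7 (-0.23 beside 0.22 for KPNA4) and SCARNA21 (0.22 beside -0.19 for CHD3). Among the 9 pairs, SCARNA15 with its gene FSD2, SCARNA11 and TMEM167A lay below the limit of 5.35. The count by size was not repeated with loess or quantile centring. The directions were the same in 4 pairs and opposite in 7, and in 2 pairs the gene did not differ between the arrays at 2 decimals. With loess or quantile centring they were the same in 4 and opposite in 9, but SCARNA12 and SCARNA22, 2 of the same-direction scaRNAs as deposited, turned in sign. The directions rest in part on differences of 0.03 or less in size, among them those of ATG16L1, CHD4 and CEP295.

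ATG16L1, an autophagy gene whose product helps attach LC3 to membranes, had 7.98 on the siP62 array and 7.99 on the siCONTROL array. The scaRNAs within it, SCARNA5 and SCARNA6, differed by -0.12 and 0.13, so they lay on either side of their gene. PHB2, which encodes a mitophagy receptor and holds SCARNA12, had 9.39 on the siP62 array and 9.04 on the siCONTROL array, while SCARNA12 differed by 0.03. NSD2, a histone methyltransferase gene around SCARNA22, had 7.57 on the siP62 array and 7.28 on the siCONTROL array, a difference of 0.29 beside the 0.03 of SCARNA22. In both pairs the gene was higher and its scaRNA nearly level.

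The genes around SCARNA1, SCARNA3 and SCARNA8 (PPP1R8, COP1 and HAUS6) were not analysed here, so the highest difference of the scaRNAs has no gene set beside it. CEP295, a centriole gene around SCARNA9, had 6.41 on the siP62 array and 6.44 on the siCONTROL array, and CHD4, a chromatin remodeller gene around SCARNA11, 8.92 on the siP62 array and 8.93 on the siCONTROL array. KHDC4, around SCARNA4, read 7.25 on both arrays, and FSD2, around SCARNA15, 3.80 on both, below the limit. SCARNA15 also lies within SNHG21 and SCARNA11 within CHD4-AS1, which were not analysed here. CHD3, a relative of CHD4 around SCARNA21, had 9.64 on the siP62 array and 9.83 on the siCONTROL array, opposite in direction to SCARNA21. Opposite directions were also found for the U1 guides. KPNA4, an importin gene around SCARNA7, had 8.20 on the siP62 array and 7.98 on the siCONTROL array. TMEM167A, around SCARNA18, had 4.21 on the siP62 array and 4.07 on the siCONTROL array, both below the limit. The noncoding gene SNHG20, around SCARNA16, had 6.68 on the siP62 array and 6.56 on the siCONTROL array. TIPIN, a replication fork gene around SCARNA14, differed by 0.08 beside the 0.06 of SCARNA14.

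**Figure D4:**
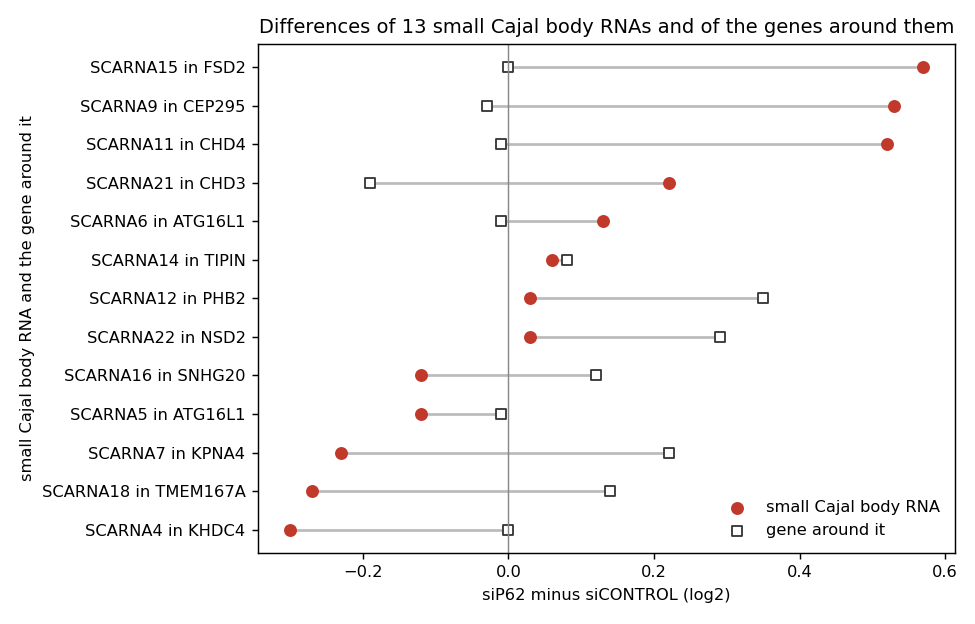
Difference between the arrays, siP62 minus siCONTROL on the log2 scale (x axis), of 13 scaRNAs (filled points) and of the gene around each (open squares), 1 pair per line (y axis). SCARNA15, SCARNA9 and SCARNA11 lie at 0.52 to 0.57 beside genes at -0.03 to 0.00, and PHB2 and NSD2 lie at 0.35 and 0.29 beside scaRNAs at 0.03. SCARNA15, SCARNA11 and FSD2, a gene around SCARNA15, had values below 5.35 on both arrays. Values below that limit are not marked in the figure, and strand was not compared.

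Genes for the proteins that bind and assemble these guide RNAs were read at the mRNA level. Of 27 genes listed, 21 were named on the array, and their median difference was 0.04, with 12 (57.1%) higher, 9 lower and none past 1.5-fold. Of the 21, 20 passed the limit used above. Over all named genes that passed it the median was also 0.04, with 55.4% higher. Of those, 2.08% were past 1.5-fold upward and 1.6% downward. The 21 genes thus do not stand apart from that background. Of the C/D core proteins, fibrillarin (FBL), the methyltransferase, had 11.00 on the siP62 array and 10.88 on the siCONTROL array, NOP58 9.54 on the siP62 array and 9.72 on the siCONTROL array, and SNU13 4.84 on the siP62 array and 4.93 on the siCONTROL array. Of the H/ACA core proteins, which surround dyskerin, NHP2 had 8.16 on the siP62 array and 7.87 on the siCONTROL array, NOP10 10.09 on the siP62 array and 9.99 on the siCONTROL array, and GAR1 6.17 on the siP62 array and 6.23 on the siCONTROL array. The core protein genes thus differed by at most 0.29 in size, the value of NHP2. SNU13 was the gene of the 21 that stayed below the limit, so its signal is not shown to be above background. NOP56 and DKC1, and WRAP53, whose product holds scaRNAs in Cajal bodies, were not analysed here.

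Among the assembly factors the H/ACA chaperone genes NAF1 and SHQ1 differed by 0.31 and 0.21, and PIH1D1, a subunit of the R2TP chaperone complex, by 0.32, the highest of the list. NOPCHAP1, a C/D assembly factor gene, had the lowest difference at -0.27. COIL, which encodes the Cajal body scaffold coilin, had 6.46 on the siP62 array and 6.31 on the siCONTROL array. TERC, the telomerase RNA, which carries an H/ACA domain and also visits Cajal bodies, had 8.75 on the siP62 array and 8.71 on the siCONTROL array, and RMRP, the RNA of the RNase MRP complex, 13.12 on the siP62 array and 13.19 on the siCONTROL array. RPPH1, a further structured RNA, had 7.06 on the siP62 array and 7.09 on the siCONTROL array. These other structured RNAs were chosen after their values were seen, and they differed by 0.04, -0.07 and -0.03.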

How the data were processed

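One whole-transcript array was read for siP62 and one for siCONTROL. The authors deposited log2 values of 48226 probe sets; the submitters' processing notes list RMA, and Transcriptome Analysis Console with version 4.0.2.15, but not which arrays were normalized together. No coordinates are printed, as the build behind the probe sets was not stated. The platform annotation gave 1 symbol for 16098 probe sets; the other 32128 were not used here. Where a gene had several, the one with the highest mean of the 2 arrays was taken (14884 genes). Differences are siP62 minus siCONTROL. All 23 scaRNAs matched the RefSeq table of GRCh38.p14, used for names, lengths and neighbours; strand was not used, although planned for the genes around them. The sequence tables held 0 of the 23, so no sequence is printed. Box classes and guided snRNAs are general knowledge. The members and lists were chosen with earlier results of these data known. Named were all scaRNAs above the limit, SQSTM1 and the core proteins by rule; the dim scaRNAs, the genes around them, assembly factors and other RNAs after their values were seen. The steps were tested on simulated data with a shift larger than any scaRNA difference here, so recovery of differences of this size was not tested. Tools were Python 3.11.15, numpy 2.4.6, pandas 2.3.3 and statsmodels 0.14.6. Alternatives were median, loess (fraction 0.3) and quantile centring, filters at the median and the 70th percentile, and the mean over probe sets. The number of arrays limits the precision.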

Additional observations from a re-analysis of the deposited data

How the results depend on the processing

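Subtracting the median difference or taking the mean over probe sets changed no value, since that median was 0.00 and each scaRNA had 1 probe set. The median difference of the scaRNAs, 0.06 as deposited, ranged from 0.03 to 0.08 over all alternatives. Quantile normalization put SCARNA1 at 1 on the log2 scale, so that 1 scaRNA was 2-fold higher, and it and the loess curve each gave 2 scaRNAs at least 1.5-fold higher, SCARNA15 being the second. The number at least 1.5-fold higher was 0 with either filter and 0 without SCARNA1, an alternative chosen after seeing the data, as were the one without SCARNA9L and the centring of the paired directions. SCARNA12 turned to -0.0147 with the loess curve and to -0.005 with quantile normalization, and SCARNA22 to -0.0093 and -0.01; the cause was not tested. The number 2-fold lower or 1.5-fold lower was 0 throughout. The median log2 value of the scaRNAs, 6.90 on the siP62 array and 6.70 on the siCONTROL array, was 7.42 on the siP62 array and 7.05 on the siCONTROL array with the filter at the median of named probe sets, and 8.10 on the siP62 array and 8.22 on the siCONTROL array with that at the 70th percentile, which left 18 and 13 scaRNAs; fewer members entered by construction. SQSTM1 ranged from -1.39 to -1.34, the snoRNP protein genes from 0.00 to 0.04 and the genes around the scaRNAs from 0.04 to 0.05. The planned results for SNORD and SNORA symbols, tandem imprinted families and rRNA processing RNAs had no members and were not run. No paired analysis was possible because each group held 1 array.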
